A study of Mus musculus with 12 samples.

Results

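Hepatocyte genes at day 21 of a mammary tumour were taken as the genes with a mean of at least 100 normalized counts over the 3 day 21 libraries of PBS-injected mice. This rule kept 8441 of the 15910 genes in the table, and its purpose is to leave out transcripts that other cells bring into the tumour libraries. Only the PBS day 21 values chose the genes, so a gene's level there is not a finding. All 8441 also passed the minimum of a mean of 10 over the 12 libraries that the test required. The 3 genes just inside the limit were C1qtnf1, Natd1 and Exoc3l2, with PBS means of 100.17, 100.24 and 100.27. Just outside were Nufip1, Rpp40 and Champ1, with 99.96, 99.96 and 99.87.

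The mice were 8-week-old female Balb/c animals given an orthotopic injection of 4T1 breast cancer cells or of PBS. 4T1 is a mammary carcinoma line that arose in Balb/c mice. There were 3 mice in each of 4 groups, namely tumour and PBS mice taken at day 21, and tumour and PBS mice taken at day 4. Hepatocytes were dissociated after liver perfusion and their polyadenylated RNA was sequenced, 1 library a mouse. The labels name no transgene or drug, and the PBS mice of the same day are the only controls. The title of the series names inflammation, loss of HNF4a and metabolic change in the liver as its questions. Below, values of the tumour libraries are given for replicates 7, 8b and 9a, and those of the PBS libraries for replicates 10a, 11a and 12b. They are normalized counts, which are not divided by gene length, so levels are compared between groups and not between genes.

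Hepatocytes make most plasma proteins, and they carry out bile acid, urea, glucose, lipid and xenobiotic metabolism. In inflammation, cytokines such as interleukin 6 act on hepatocytes through STAT3, C/EBP and NF-kB and raise the acute-phase proteins. Textbook accounts describe a fall of cytochrome P450 enzymes and other metabolic genes in the same state.

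Day 21 libraries held 9375095 to 19896545 recovered reads in tumour mice and 16175648 to 21809166 in PBS mice. All 15 hepatocyte markers in the list, from Alb and Apoa1 to Cps1, were among the 8441 genes. Fgb was the only marker called, higher in tumour mice. The preparation also held other cells. Of 16 sinusoidal endothelial markers 15 passed the rule, as did 12 of 16 markers of Kupffer cells and macrophages, 7 of 13 stellate, 2 of 12 monocyte and 1 each of neutrophil, B cell, erythroid and cholangiocyte markers. None of the immature myeloid, T and NK cell or platelet markers passed. The rule therefore also keeps genes of other liver cells, and the 8441 are called genes in the rule from here on. The 8441 genes took 95.7%, 98.4% and 98.3% of the normalized counts in tumour replicates 7, 8b and 9a, against 98.9%, 98.8% and 98.9% in PBS mice. The PBS values of the same libraries chose the genes, so these shares are a description. With genes chosen by the day 4 PBS mean the shares were 95.4%, 98.4% and 98.2% in the tumour libraries, against 98.8%, 98.7% and 98.8% in PBS libraries. Tumour replicate 7 stood apart. Mitochondrially encoded transcripts took 10.4% of its normalized counts, against 4.93% and 5.80% in the other tumour libraries and 6.03% to 7.59% in PBS libraries. Its median Pearson correlation with the other libraries over these genes was 0.897, against 0.943 and 0.957 for the other tumour libraries and 0.948 to 0.969 for PBS.

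Replicate 7 was also the library richest in markers of other cells. Summed neutrophil markers, of which 15 of 16 tested were called higher, stood at 88928, 40057 and 20881 normalized counts in the tumour libraries and at 450.7, 124 and 411 in PBS libraries. The Retnlg and Stfa2l1 genes of that list were at 0 in every PBS library. Lcn2, also in the acute-phase list below, is part of the neutrophil sums. It makes up most of the sum in replicate 8b and in each PBS library. Immature myeloid markers summed to 32407, 7110 and 6364 in the tumour libraries and 6.97, 3.50 and 8.17 in PBS libraries, with Ms4a3, Fcnb, Chil3 and Cebpe at 0 in PBS. Markers of Kupffer cells and macrophages summed to 37256, 9501 and 19162 in the tumour libraries and 9987, 8872 and 7495 in PBS libraries. Endothelial markers summed to 18684, 4830 and 9152 in the tumour libraries and 7786, 10370 and 7083 in PBS libraries. Monocyte markers summed to 14238, 2345 and 3739 in the tumour libraries and 1284, 978 and 810.1 in PBS libraries. Stellate markers summed to 9930, 2843 and 4879 in the tumour libraries and 3697, 4334 and 2674 in PBS libraries. In replicate 7 each of these sums was the highest of the 6 day 21 libraries, and the tumour and PBS ranges overlapped for Kupffer cell and macrophage, endothelial and stellate markers. The part of these cells and of the mitochondrial share in the results that follow was not tested, and in bulk RNA fewer cells of a type and less RNA per cell cannot be told apart.

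In tumour mice 169 of the 8441 genes (2.00%) rose and 266 (3.15%) fell at day 21 (435 in all; limma, Benjamini-Hochberg adjusted p under 0.05 over all 12631 tested genes). Over all tested genes 5.42% were called higher, 2.44% lower and 7.85% either way, so rises were less common and falls more common among genes in the rule than among all tested genes. The rule selects on PBS values that also enter this contrast and can itself shift these shares. They and the shares without overlap below are therefore a description. Outside the rule 515 genes were called higher and 42 lower. The other 8006 genes in the rule were not called. Most moved little, with 82.9% of log2 fold changes within 0.5 of 0, a median of -0.05 and quartiles of -0.26 and 0.16. When each library was rescaled to its median gene the median became 0.01. The called rises had a median of 1.16 and the called falls one of -0.87. A change of at least 1 on the log2 scale was reached by 101 rising and 105 falling genes, and one of at least 2 by 27 and 24. The 3 tumour libraries did not overlap with the 3 PBS libraries for 966 genes on the high side (11.4%, against 17.2% of all tested genes) and 1667 on the low side (19.7%, against 15.4%).

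**Figure D1:**
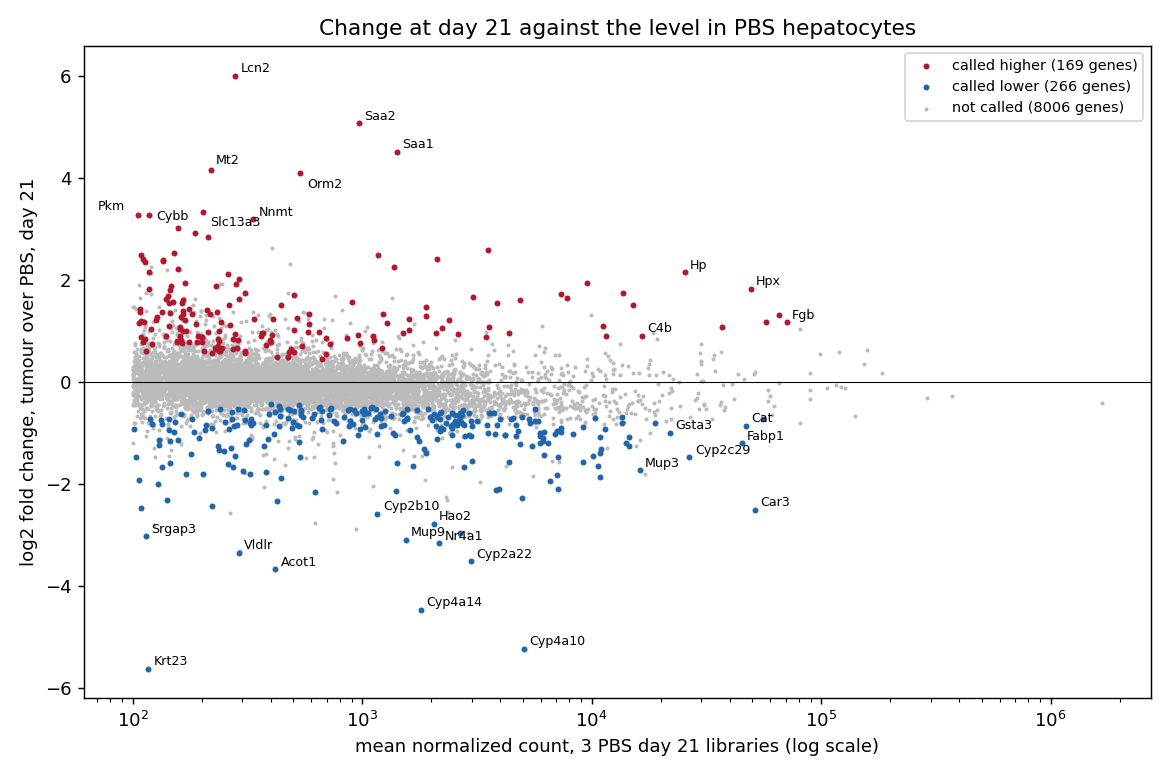
Each point is 1 of the 8441 genes, with its mean normalized count over the 3 PBS day 21 libraries on a log axis and its limma log2 fold change, tumour over PBS at day 21, on the vertical axis. The 169 genes called higher (red) run up to 6.0 for Lcn2, the 266 called lower (blue) down to -5.62 for Krt23, and most genes (grey) lie within 0.5 of 0.

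A larger share of abundant than of scarce genes was called lower. To keep the level independent of the comparison, genes were placed by their mean in the day 4 PBS mice. Of 209 genes with a mean of 10000 or more, 11 were called higher (5.26%) and 19 lower (9.09%). Of 502 between 3000 and 10000, 13 were called higher (2.59%) and 54 lower (10.8%). Among the 2836 genes between 100 and 300 the calls were 81 higher (2.86%) and 51 lower (1.80%). The median log2 fold change was -0.27 in the highest class, -0.36 in the next and 0.03 in the lowest of these 3. Rises too had their largest share in the highest class. They were least frequent between 300 and 1000 (1.25%) and between 1000 and 3000 (1.21%). In reads, the genes called higher took 7.96%, 13% and 7.79% of the normalized counts in the tumour libraries and 3.20%, 3.24% and 3.37% in PBS libraries. Those called lower took 2.64%, 2.56% and 3.66% in the tumour libraries and 5.91%, 6.13% and 6.09% in PBS libraries. The calls chose these genes, so the shares describe their weight in the library and add no support.

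Of the 435 called genes 147 were in a gene list and 288 in none, so the lists cover only a part of the change. Among the gene lists, acute-phase proteins held the most rises. Most are plasma proteins that the liver releases in inflammation. The list also holds the metallothioneins Mt1 and Mt2 and the membrane proteins Steap4 and Slc39a14. Of 32 in the rule 24 were called higher and 1 lower, 30 had a positive log2 fold change and the median was 1.38, against -0.05 over all 8441 genes. Together they took 7.91%, 13.8% and 8.40% of the normalized counts in the tumour libraries and 4.22%, 3.73% and 4.23% in PBS libraries. Lcn2, the iron-siderophore binding lipocalin 2 (ENSMUSG00000026822, GRCm38 chromosome 2, 32384633 to 32388252, minus strand), had 12692, 25195 and 8611 normalized counts in tumour mice, against 402, 69.4 and 369.6 in PBS mice. The groups did not overlap, and PBS replicate 11a was lowest (limma log2 fold change 6.0 with SE 0.67, adjusted p = 0.000832). Lcn2 is also a neutrophil granule gene, and it is the 1 neutrophil marker that the rule kept. Saa2, a serum amyloid A apolipoprotein (ENSMUSG00000057465, GRCm38 chromosome 7, 46751790 to 46754313, plus strand), had 8856, 42654 and 17445 normalized counts in tumour mice, against 1162, 89.7 and 1657 in PBS mice. Its neighbour Saa1, which is nearly identical in sequence so that reads of the pair can be split or exchanged, had 10648, 39130 and 17630 normalized counts in tumour mice, against 1996, 147 and 2108 in PBS mice. In both, replicate 8b was highest and PBS replicate 11a lowest, without overlap (limma log2 fold change 5.07 with SE 1.11, adjusted p = 0.0201 for Saa2, and limma log2 fold change 4.51 with SE 1.01, adjusted p = 0.0225 for Saa1). Orm2, an orosomucoid, had 5509, 16779 and 5452 normalized counts in tumour mice, against 554, 224 and 826 in PBS mice (limma log2 fold change 4.08 with SE 0.61, adjusted p = 0.00377). Its tumour libraries lay above all PBS libraries.

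Other genes of the list rose as well. Haptoglobin, Hp, which binds free haemoglobin, had 84239, 187614 and 88347 normalized counts in tumour mice, against 27049, 21794 and 27485 in PBS mice (limma log2 fold change 2.14 with SE 0.28, adjusted p = 0.000959). Hemopexin, Hpx, which binds free haem, had 115565, 298306 and 154653 normalized counts in tumour mice, against 51337, 52067 and 44723 in PBS mice (limma log2 fold change 1.83 with SE 0.34, adjusted p = 0.00759). The fibrinogen chain gene Fga (ENSMUSG00000028001, GRCm38 chromosome 3, 83026076 to 83033627, plus strand) had 126168, 235217 and 137669 normalized counts in tumour mice, against 55740, 73703 and 66520 in PBS mice (limma log2 fold change 1.30 with SE 0.29, adjusted p = 0.0173). None of the 3 overlapped between the groups, and each was highest in replicate 8b. The other chains Fgb and Fgg had log2 fold changes of 1.16 (SE 0.29) and 1.17 (SE 0.29) (limma adjusted p = 0.0298 and 0.0274). Itih4, an inter-alpha-trypsin inhibitor heavy chain, rose by 1.06 (SE 0.19) and Lrg1, a leucine-rich glycoprotein, by 2.57 (SE 0.31) (limma adjusted p = 0.00667 and 0.00073). Steap4, a metalloreductase of iron and copper, had 5905, 10374 and 4541 normalized counts in tumour mice, against 1616, 1363 and 1170 in PBS mice (limma log2 fold change 2.25 with SE 0.29, adjusted p = 0.00093), again with no overlap and replicate 8b on top. All 24 rising acute-phase genes were highest in replicate 8b among the tumour libraries. The neutrophil and macrophage marker sums, the first of which also holds Lcn2, were highest in replicate 7. The part of these cells in the acute-phase rises was not tested.

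Mt2, the metal-binding metallothionein 2 (ENSMUSG00000031762, GRCm38 chromosome 8, 94172664 to 94173568, plus strand), had 2358, 5607 and 4126 normalized counts in tumour mice, against 289, 213 and 153 in PBS mice. The groups were far apart (limma log2 fold change 4.16 with SE 0.46, adjusted p = 0.000705). The day 4 mice of both kinds had higher values than the PBS mice of day 21, 1076 to 2965 in tumour mice and 1156 to 2735 in PBS mice.

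The 1 acute-phase list member that fell was Hamp, which encodes the iron hormone hepcidin. It had 4258, 8208 and 6208 normalized counts in tumour mice, against 17132, 14512 and 12087 in PBS mice (limma log2 fold change -1.26 with SE 0.33, adjusted p = 0.0371). Without overlap, replicate 7 was lowest and PBS replicate 10a highest. As background, hepcidin is known to be raised by interleukin 6 and lowered when red cell production is high. Lcn2, Mt2, Orm2, Hp, Hpx, Itih4, Lrg1 and Steap4 passed in each of the 12 leave-outs of 1 library. The call was lost for Saa2 and Saa1 without tumour 7 or 8b (up to 0.0667 and 0.0711), Fga without PBS 10a or 12b (up to 0.0677) and Fgb and Fgg without tumour 8b or PBS 10a, 11a or 12b (up to 0.101 and 0.0996), with the largest limma adjusted p in brackets. It was also lost for Hamp without tumour 7 or 9a or PBS 10a, 11a or 12b (up to 0.181). Without replicate 7 the acute-phase list had 22 members called higher and 0 lower, and over all 12 leave-outs 16 to 24 higher.

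Promoter windows are shown for 4 rising genes of the acute-phase list and for the falling gene Retsat, because they hold letter patterns of factors of the acute-phase response. The windows come from RefSeq on GRCm38.p6, run 5′ to 3′ on the gene's strand around its annotated start, and are 300 bases long. Capitals mark matches on either strand to TTCNNNGAA (STAT type), TTGCNNAAT (C/EBP type) or GGGNN directly followed by TTTCC (NF-kB type). Fga, chr3:83025903-83026202, plus strand, holds a STAT and a C/EBP match. Itih4, chr14:30886226-30886525, plus strand, holds a STAT match, and Saa2, chr7:46751583-46751882, plus strand, a C/EBP match. Steap4, chr5:7960222-7960521, plus strand, holds all 3 kinds. Retsat, chr6:72598352-72598651, plus strand, holds a C/EBP match.
Fga: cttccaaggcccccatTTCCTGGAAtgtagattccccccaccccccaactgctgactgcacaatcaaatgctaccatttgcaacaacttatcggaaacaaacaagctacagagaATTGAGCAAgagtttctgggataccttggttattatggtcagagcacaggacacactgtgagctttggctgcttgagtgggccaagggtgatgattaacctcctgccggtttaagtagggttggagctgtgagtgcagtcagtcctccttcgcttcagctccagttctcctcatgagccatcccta
Itih4: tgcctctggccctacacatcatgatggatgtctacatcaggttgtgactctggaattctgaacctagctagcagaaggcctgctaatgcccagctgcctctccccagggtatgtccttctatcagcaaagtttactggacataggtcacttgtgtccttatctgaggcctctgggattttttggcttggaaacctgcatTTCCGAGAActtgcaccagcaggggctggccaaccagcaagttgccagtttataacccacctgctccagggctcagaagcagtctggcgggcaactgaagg
Saa2: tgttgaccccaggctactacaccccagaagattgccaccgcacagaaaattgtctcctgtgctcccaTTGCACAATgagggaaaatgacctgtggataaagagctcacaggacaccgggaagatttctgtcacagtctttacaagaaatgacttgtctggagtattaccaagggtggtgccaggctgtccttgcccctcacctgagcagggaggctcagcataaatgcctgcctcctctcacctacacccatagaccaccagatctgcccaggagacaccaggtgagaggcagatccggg
Steap4: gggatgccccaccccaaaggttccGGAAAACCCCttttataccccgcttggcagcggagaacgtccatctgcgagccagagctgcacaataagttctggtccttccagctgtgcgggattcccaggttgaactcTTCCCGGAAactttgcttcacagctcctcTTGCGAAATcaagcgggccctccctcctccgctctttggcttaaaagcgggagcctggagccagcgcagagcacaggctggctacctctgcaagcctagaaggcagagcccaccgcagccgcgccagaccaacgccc
Retsat: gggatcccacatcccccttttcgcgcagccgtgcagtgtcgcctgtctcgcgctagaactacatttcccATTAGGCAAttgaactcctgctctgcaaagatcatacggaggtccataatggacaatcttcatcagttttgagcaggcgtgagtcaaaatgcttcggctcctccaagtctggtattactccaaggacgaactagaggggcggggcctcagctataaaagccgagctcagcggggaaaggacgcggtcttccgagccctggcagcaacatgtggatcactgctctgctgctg

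The patterns were then counted over all windows, as a description and not as binding sites. RefSeq windows matched 6680 of the 8441 genes, 121 of those called higher and 221 of those called lower. TTCNNNGAA was present for 21 of the 121 rising genes (17.4%), 15 of the 221 falling genes (6.79%) and 7.99% of the 6680, and in 8.30% of all 32851 windows. TTGCNNAAT was present for 8 rising (6.61%) and 17 falling genes (7.69%), 2.11% of the 6680 and 2.4% of all windows. The NF-kB pattern was present for 10 rising (8.26%) and 5 falling genes (2.26%), 1.92% of the 6680 and 1.63% of all windows. A second STAT pattern, TTC and GAA with 4 bases between them in place of 3, was present for 5 rising (4.13%) and 14 falling genes (6.33%), 6.17% of the 6680 and 6.95% of all windows. TTCNNNGAA and the NF-kB pattern were thus more frequent in rising than in falling genes, the second STAT pattern less frequent, and the C/EBP pattern had near the same share in both. Among the 17 rising acute-phase genes with a window, 5 held TTCNNNGAA and 6 the C/EBP pattern. These 4 were described out of 14 letter patterns searched, which were chosen with the fold changes known, and no test was made.

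**Figure D2:**
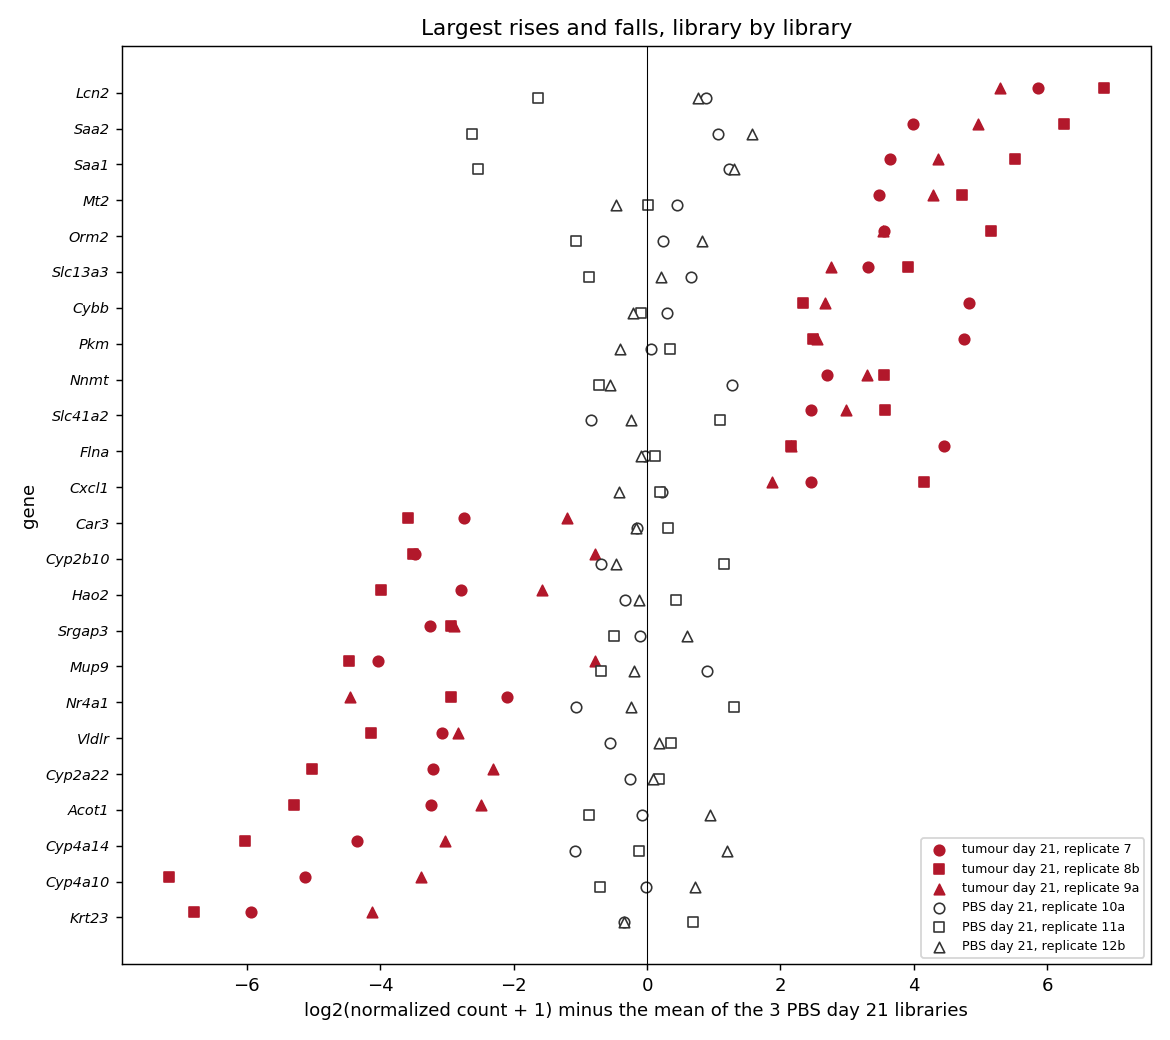
Among called genes whose groups do not overlap, 12 rises and 12 falls of the greatest size, 1 row a gene, with log2(normalized count + 1) of each day 21 library less the mean of the PBS libraries (filled red tumour, open PBS, shapes by replicate). No gene overlaps between the groups. Cybb, Pkm and Flna are highest in replicate 7, and Lcn2, Saa2, Saa1 and Orm2 in replicate 8b.

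Genes of interleukin 6 and STAT3 signalling were the next list, which also holds genes of interleukin 1, TNF and NF-kB signalling. Of 22 in the rule 4 were called higher and 0 lower, and 17 were positive and 5 negative (median 0.36). Of the 4 calls, Nfkbiz and Il1r1 belong to the NF-kB and interleukin 1 part. Stat3, the transcription factor downstream of the interleukin 6 receptor (ENSMUSG00000004040, GRCm38 chromosome 11, 100885098 to 100939540, minus strand), had 3388, 4190 and 3702 normalized counts in tumour mice, against 1672, 1713 and 1410 in PBS mice. The 2 groups were far apart, with little spread in either (limma log2 fold change 1.23 with SE 0.14, adjusted p = 0.000569). Il6st, the shared signalling receptor gp130, rose by 0.95 (SE 0.18), Nfkbiz, a nuclear IkB protein, by 1.20 (SE 0.22) and Il1r1, the interleukin 1 receptor, by 1.70 (SE 0.47) (limma adjusted p = 0.00866, 0.00747 and 0.049). Complement genes, which form the plasma cascade that lyses and opsonizes microbes, had 4 of 25 called higher, 0 lower and a median of 0.63. C1qa, C1qb, C1qc and Fcna of this list are also markers of Kupffer cells and macrophages. They had log2 fold changes of 1.28, 1.33, 1.32 and 0.98 without a call, beside a median of 1.19 over the 12 Kupffer cell and macrophage markers in the rule, and their part in the list's median was not tested. C9, a pore-forming component, had 6626, 12501 and 10792 normalized counts in tumour mice, against 3605, 2843 and 2723 in PBS mice (limma log2 fold change 1.67 with SE 0.26, adjusted p = 0.00293), without overlap. C8a, another pore component, rose by 1.60 (SE 0.33) and C4b by 0.90 (SE 0.18) (limma adjusted p = 0.0118 and 0.00916). The coagulation list had 20 in the rule, with protein S, Pros1, called higher (1.13) and prekallikrein, Klkb1, called lower (-0.70; limma adjusted p = 0.00417 and 0.0357). Stat3, Il6st, Nfkbiz, C9 and Pros1 passed in each of the 12 leave-outs of 1 library. When 1 library was left out, the call was lost for Il1r1 in 9 of the 12 leave-outs, all but those of tumour 9a and day 4 PBS 4 and 6 (up to 0.187), C8a without PBS 11a (up to 0.0531) and C4b without PBS 12b (up to 0.051), with the largest limma adjusted p in brackets. The same was true of Klkb1 without tumour 7 or PBS 10a, 11a or 12b (up to 0.169).

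Not all secreted proteins followed. Plasma carriers and negative acute-phase proteins, among them albumin, transthyretin and transferrin, had 0 of 22 called in either direction by limma or edgeR and 2 called higher by DESeq2 (6 at an unadjusted limma p under 0.05), and a median of -0.01 that became 0.05 after rescaling. Apolipoproteins and lipoprotein handling had 0 of 24 called higher and 1 lower. This was Lipc, hepatic lipase, which hydrolyses lipids of circulating lipoproteins and had 1651, 1979 and 2746 normalized counts in tumour mice, against 4851, 5156 and 4587 in PBS mice (limma log2 fold change -1.23 with SE 0.17, adjusted p = 0.00167). All tumour libraries were below all PBS libraries. Apoa2, of high-density lipoprotein, had -0.80 and missed the threshold (limma adjusted p = 0.0508). Endoplasmic reticulum translocation and folding genes had 0 of 46 called by limma or edgeR and 4 called higher by DESeq2 (7 at an unadjusted limma p under 0.05), 40 of them positive, with a median of 0.17. Interferon response genes had 2 of 32 called higher, the immunoproteasome subunit Psmb8 (0.58) and the peptide transporter Tap1 (0.67; limma adjusted p = 0.0418 and 0.0426), and a median of 0.30. Lipc passed in all 12 leave-outs of 1 library. Leaving out 1 library ended the call for Psmb8 without tumour 7, 8b or 9a or PBS 11a or 12b (up to 0.152) and Tap1 in 8 of the 12 leave-outs, all but those of day 4 tumour 1 and 3 and day 4 PBS 4 and 6 (up to 0.179), with the largest limma adjusted p in brackets.

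**Figure D3:**
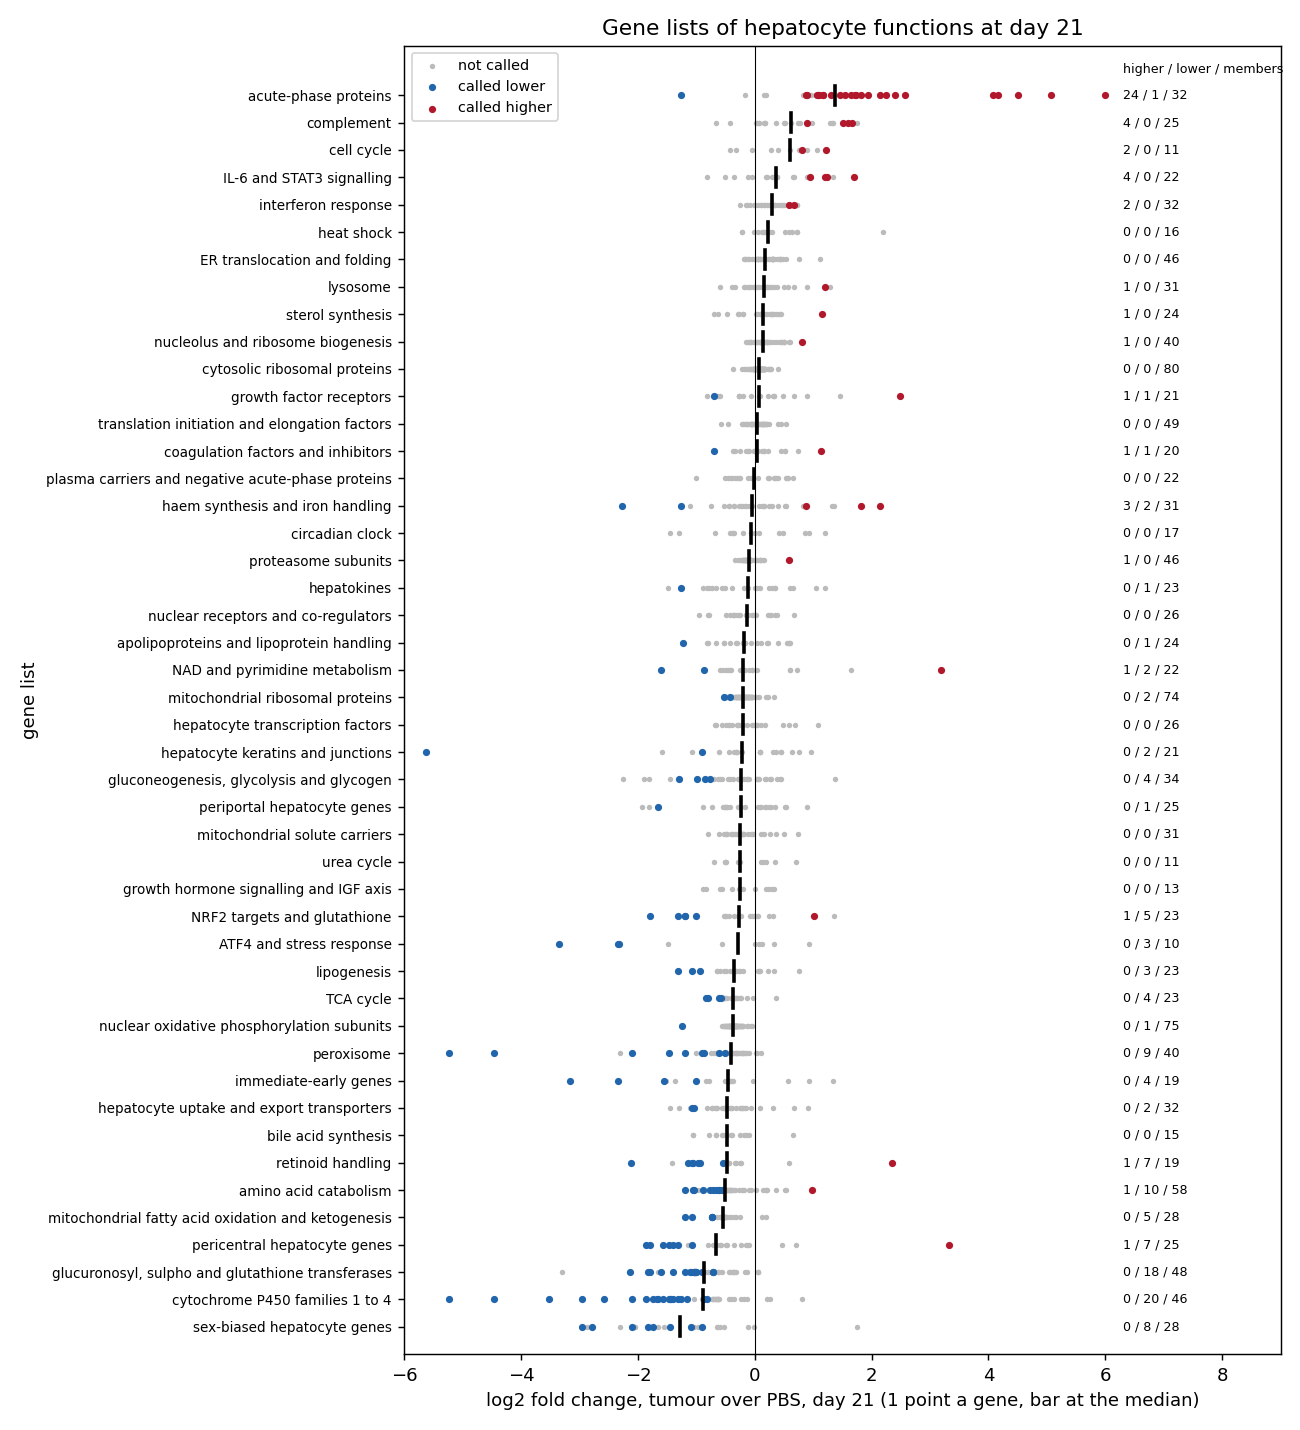
Log2 fold changes, tumour over PBS at day 21, of the genes of each list with at least 10 genes in the rule, 1 point a gene, red where called higher, blue where called lower and grey otherwise, with a bar at the list's median. Numbers at the right give genes called higher, called lower and in the rule. Acute-phase proteins lie at the top with a median of 1.38, and P450, transferase and sex-biased genes at the bottom with -0.88, -0.87 and -1.27.

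Several of the largest rises lay outside the acute-phase list. Slc13a3, a sodium-coupled dicarboxylate transporter (ENSMUSG00000018459, GRCm38 chromosome 2, 165405028 to 165473230, minus strand), had 1844, 2787 and 1256 normalized counts in tumour mice, against 292, 101 and 212 in PBS mice (limma log2 fold change 3.33 with SE 0.40, adjusted p = 0.000848). Nnmt, nicotinamide N-methyltransferase, had 1766, 3194 and 2691 normalized counts in tumour mice, against 658, 164 and 185 in PBS mice (limma log2 fold change 3.18 with SE 0.55, adjusted p = 0.0069). No library of either gene crossed into the other group. Egfr, the epidermal growth factor receptor, had 5417, 10813 and 3950 normalized counts in tumour mice, against 1730, 738 and 1043 in PBS mice (limma log2 fold change 2.48 with SE 0.51, adjusted p = 0.014), again without overlap. The magnesium transporter Slc41a2 rose by 3.00 (SE 0.70), the chemokine Cxcl1, which attracts neutrophils, by 2.83 (SE 0.66) and Grn, the lysosomal growth factor progranulin, by 1.20 (SE 0.28) (limma adjusted p = 0.0267, 0.0257 and 0.0231). Slc13a3 and Nnmt passed in each of the 12 leave-outs of 1 library. Calls that did not hold were those for Egfr and Grn without tumour 7 or PBS 11a or 12b (up to 0.0609 and 0.099), Slc41a2 without tumour 7 or 8b or PBS 10a or 12b (up to 0.0941) and Cxcl1 without tumour 7 or 8b or PBS 10a, 11a or 12b (up to 0.098), with the largest limma adjusted p in brackets.

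A second set of rising genes followed replicate 7. Cybb, the membrane subunit of the phagocyte NADPH oxidase, had 3323, 590.3 and 741 normalized counts in tumour mice, against 144, 109 and 101 in PBS mice (limma log2 fold change 3.27 with SE 0.70, adjusted p = 0.0179). Pkm, the pyruvate kinase of most tissues other than liver, had 2796, 582 and 606 normalized counts in tumour mice, against 107, 131 and 77.2 in PBS mice (limma log2 fold change 3.26 with SE 0.58, adjusted p = 0.00747), and Flna, the actin cross-linker filamin A, had 4125, 841 and 838 normalized counts in tumour mice, against 184, 203 and 176 in PBS mice (limma log2 fold change 2.92 with SE 0.58, adjusted p = 0.0125). All 3 were several-fold higher in replicate 7 than in replicates 8b and 9a, and the marker sums of neutrophils, immature myeloid cells and monocytes were also highest in replicate 7. The part of those cells in these rises was not tested. Without replicate 7 the log2 fold changes were 2.50, 2.52 and 2.16 (limma adjusted p = 0.0574, 0.01 and 0.015). Replicate 7 was the highest tumour library for 75 of the 169 rising genes (44.4%), replicate 8b for 78 (46.2%) and replicate 9a for 16 (9.47%), whereas over all 8441 genes the shares were 32.8%, 34.3% and 32.9%. Of the 75, 25 were still called without replicate 7, and of the 78, 52. Pcna and Rrm1, which serve DNA synthesis, were the 2 of 11 cell cycle genes called higher (0.82 and 1.21; limma adjusted p = 0.0161 and 0.0303), and replicate 7 was highest in both. Pkm passed in all 12 leave-outs of 1 library. The call was lost for Cybb and Pcna without tumour 7 or PBS 11a or 12b (up to 0.0717 and 0.0689), Flna without PBS 12b (up to 0.0521) and Rrm1 without tumour 7 or PBS 10a, 11a or 12b (up to 0.103), with the largest limma adjusted p in brackets.

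**Figure D4:**
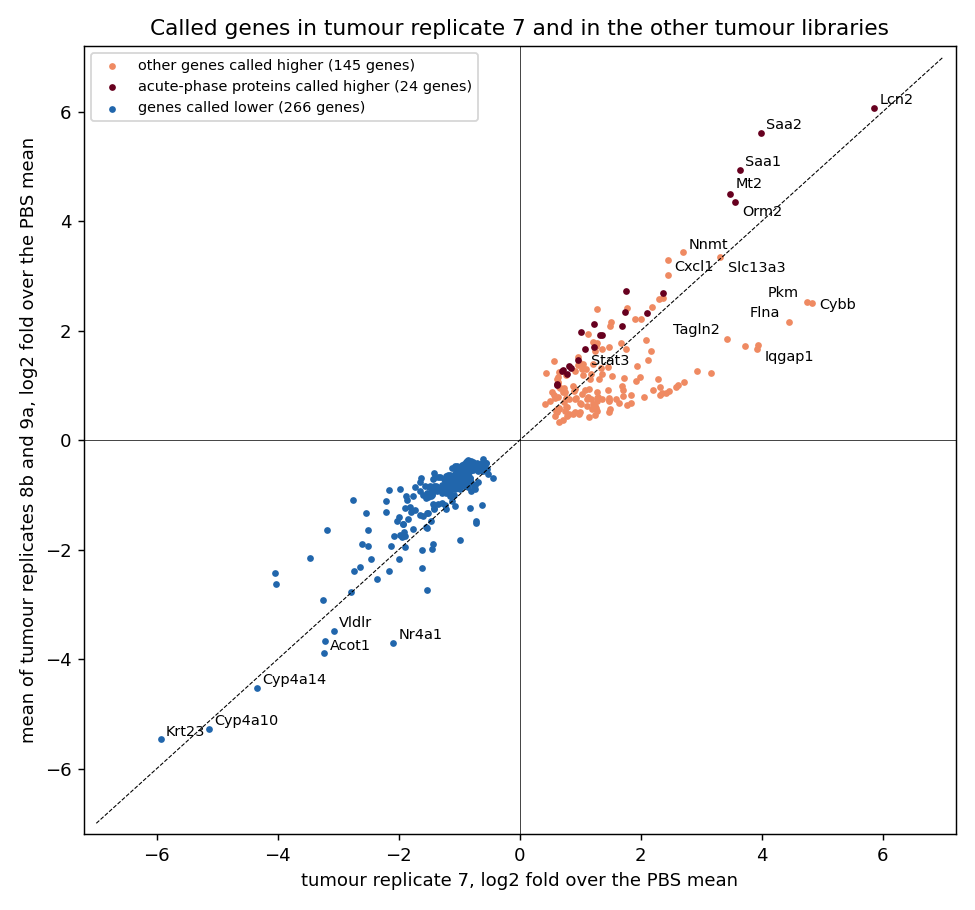
For each called gene, the log2 fold over the PBS mean in tumour replicate 7 (horizontal) and the mean log2 fold of replicates 8b and 9a (vertical), with a dashed line of equality. The 24 acute-phase genes (dark red) lie on or above the line, while Cybb, Pkm, Flna, Iqgap1 and Tagln2 lie well below it, higher in replicate 7. All called genes moved the same way on both axes.

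Among falling genes, Krt23, a type I keratin (ENSMUSG00000006777, GRCm38 chromosome 11, 99477974 to 99493137, minus strand), had the largest fold at a pseudocount of 1. It had 0.81, 0.00 and 5.34 normalized counts in tumour mice, against 86.3, 179 and 86.3 in PBS mice, which came from 1, 0 and 7 recovered reads in the tumour libraries and 99, 255 and 95 in PBS libraries. Nearly no reads were left in any tumour library (limma log2 fold change -5.62 with SE 0.60, adjusted p = 0.000394). At such counts the value depends on the pseudocount, and with 10 in place of 1 it was -3.35, a smaller fall than the -5.07 of Cyp4a10 described next. Srgap3, a GTPase-activating protein (ENSMUSG00000030257, GRCm38 chromosome 6, 112717971 to 112947266, minus strand), had 10.5, 13.3 and 13.7 normalized counts in tumour mice, against 101, 77.1 and 164 in PBS mice (limma log2 fold change -3.03 with SE 0.31, adjusted p = 0.000325), with the 3 tumour libraries close together and all below PBS. The PBS mean of Srgap3 passed the limit of 100 at day 21 and not at day 4, with means of 12.5 in tumour and 114 in PBS mice at day 21 and of 46.2 and 63.7 in tumour and PBS mice at day 4, so its fall and its difference between the days come from a gene chosen in the group where it is high. Car3, a carbonic anhydrase abundant in liver, had 7602, 4225 and 22006 normalized counts in tumour mice, against 45648, 63201 and 45200 in PBS mice (limma log2 fold change -2.51 with SE 0.45, adjusted p = 0.00668). Hydroxyacid oxidase 2, Hao2, of the peroxisome, had 289, 125 and 672 normalized counts in tumour mice, against 1596, 2710 and 1844 in PBS mice (limma log2 fold change -2.78 with SE 0.46, adjusted p = 0.00541). In both, replicate 8b was lowest and replicate 9a nearest to PBS, without overlap. Krt23, Srgap3, Car3 and Hao2 passed in each of the 12 leave-outs of 1 library.

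Cytochrome P450 enzymes of families 1 to 4, which oxidize drugs, steroids and fatty acids, held more falls than any other list. Of 46 in the rule 0 were called higher and 20 lower, 43 had a negative log2 fold change and the median was -0.88. Without replicate 7 there were 12 lower, and over the 12 leave-outs 11 to 27. The fatty acid hydroxylase Cyp4a10 had 132, 31.6 and 448 normalized counts in tumour mice, against 4648, 2868 and 7704 in PBS mice (limma log2 fold change -5.23 with SE 0.80, adjusted p = 0.00416). Its neighbour Cyp4a14, a close relative in sequence, had 71.1, 21.6 and 179 normalized counts in tumour mice, against 697, 1345 and 3385 in PBS mice (limma log2 fold change -4.47 with SE 0.87, adjusted p = 0.0122). Each lay lower in all 3 tumour libraries than in any PBS library, with replicate 8b lowest. Cyp2a22 fell by 3.52 (SE 0.56) and Cyp2b10, a target of the receptor CAR, by 2.59 (SE 0.68) (limma adjusted p = 0.00468 and 0.0438). Cyp2c29 had 7584, 7511 and 14938 normalized counts in tumour mice, against 22388, 31878 and 25743 in PBS mice (limma log2 fold change -1.48 with SE 0.25, adjusted p = 0.0042). Cyp2c37 and Cyp2c50, of the same gene cluster, fell by 1.87 (SE 0.28) and 1.31 (SE 0.19), and Cyp2b9 and Cyp2b13, both higher in female than in male mouse liver, by 1.45 (SE 0.24) and 2.10 (SE 0.31) (limma adjusted p = 0.00203, 0.00193, 0.00417 and 0.00201). No tumour library of these 4 reached the PBS range. Reads of Cyp2a, Cyp2b, Cyp2c and Cyp4a relatives can be shared in counting, so the split between family members is uncertain. Cyp4a10, Cyp2a22, Cyp2c29, Cyp2c37, Cyp2c50, Cyp2b9 and Cyp2b13 passed in each of the 12 leave-outs of 1 library. When 1 library was left out, the call was lost for Cyp4a14 without tumour 7 or PBS 12b (up to 0.0609) and Cyp2b10 in 11 of the 12 leave-outs, all but those of tumour 9a (up to 0.22), with the largest limma adjusted p in brackets. Over the list, P450 genes took 1.64%, 1.55% and 1.94% of normalized counts in the tumour libraries and 3.55%, 2.59% and 2.99% in PBS libraries.

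Conjugating enzymes, which attach glucuronate, sulphate or glutathione, held the next highest number of falls. Of 48 in the rule 18 were called lower and 0 higher, 45 were negative and the median was -0.87, with 5 lower without replicate 7 and 5 to 28 over the leave-outs. Gstm6, a glutathione transferase, had 656, 705 and 787 normalized counts in tumour mice, against 1585, 1951 and 2165 in PBS mice (limma log2 fold change -1.40 with SE 0.18, adjusted p = 0.001). Another, Gstt3 (ENSMUSG00000001665, GRCm38 chromosome 10, 75774115 to 75781414, minus strand), had 228, 241 and 567 normalized counts in tumour mice, against 1194, 1759 and 1275 in PBS mice (limma log2 fold change -2.14 with SE 0.28, adjusted p = 0.00116). In the first the tumour libraries were close together, and in the second replicate 9a stood above the other two, still below PBS. Gsta3, of the alpha class, fell by 1.0 (SE 0.25) and the sulphotransferases Sult2a8 and Sult1c2 by 1.83 (SE 0.30) and 1.61 (SE 0.28) (limma adjusted p = 0.0272, 0.0039 and 0.0053). Transferases took 0.669%, 0.706% and 0.946% of normalized counts in the tumour libraries and 1.32%, 1.23% and 1.21% in PBS libraries. The related list of NRF2 targets and glutathione genes had 1 of 23 called higher, Pgd, and 5 lower, of which Gsta4, Gstm3 and Gstm1 are transferases and the others are Me1 and Gclc. None of these 6 calls was made without replicate 7, PBS 11a or PBS 12b, and over the leave-outs 0 to 7 were lower. Sex-biased hepatocyte genes had 0 of 28 higher, 8 lower and the lowest median of all lists, -1.27, with 4 lower without replicate 7, PBS 10a or PBS 12b, 5 without 8b and 17 without 9a. The major urinary protein gene Mup3 of that list fell by 1.73 (SE 0.42), and Mup9, which is not in it, by 3.10 (SE 0.83) (limma adjusted p = 0.0276 and 0.0455). Mup genes are nearly identical to each other, so these values are uncertain. Gstm6, Gstt3, Sult2a8 and Sult1c2 passed in each of the 12 leave-outs of 1 library. Leaving out 1 library ended the call for Gsta3 and Mup3 without tumour 7 or 8b or PBS 10a, 11a or 12b (up to 0.127 and 0.127) and Mup9 in 11 of the 12 leave-outs, all but those of tumour 9a (up to 0.225), with the largest limma adjusted p in brackets.

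Fatty acid and peroxisomal genes held falls and no rises. Of 40 peroxisome genes 9 were called lower and 0 higher (median -0.40, with 2 lower without replicate 7), and of 28 genes of mitochondrial fatty acid oxidation and ketogenesis 5 lower and 0 higher (median -0.54, with 0 without replicate 7). The lowest log2 fold change of the peroxisome list, -5.23, is that of Cyp4a10, which the P450 list also counts. Fabp1, the liver fatty acid-binding protein, had 19016, 13216 and 29439 normalized counts in tumour mice, against 46050, 40035 and 48916 in PBS mice (limma log2 fold change -1.20 with SE 0.31, adjusted p = 0.0319), and catalase, Cat, had 21040, 23593 and 35088 normalized counts in tumour mice, against 45088, 51100 and 45350 in PBS mice (limma log2 fold change -0.86 with SE 0.20, adjusted p = 0.0201). In both every tumour library was below every PBS library, with replicate 9a nearest. Ehhadh, of peroxisomal beta-oxidation, fell by 1.47 (SE 0.31) and Acsl1, which activates long-chain fatty acids, by 1.08 (SE 0.22) (limma adjusted p = 0.0136 and 0.012). Acot1, a cytosolic acyl-CoA thioesterase, had 38.0, 8.31 and 64.1 normalized counts in tumour mice, against 348, 199 and 705 in PBS mice (limma log2 fold change -3.68 with SE 0.84, adjusted p = 0.0243). The lipoprotein receptor gene Vldlr had 32.3, 15.0 and 38.2 normalized counts in tumour mice, against 191, 361 and 318 in PBS mice (limma log2 fold change -3.35 with SE 0.58, adjusted p = 0.00626). Tumour libraries of both lay below all PBS libraries. Vldlr passed in all 12 leave-outs of 1 library. Calls that did not hold were those for Fabp1 and Cat without tumour 7 or 8b or PBS 10a, 11a or 12b (up to 0.117 and 0.0842), Ehhadh without tumour 7 or PBS 11a or 12b (up to 0.0694) and Acsl1 without tumour 7 or PBS 12b (up to 0.0627), with the largest limma adjusted p in brackets. Likewise it was lost for Acot1 without tumour 7 or 8b or PBS 10a or 12b (up to 0.0994).

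Retinoid genes moved in both directions. Of 19 in the rule 7 fell and 1 rose, with 2 lower without replicate 7 or PBS 12b, 3 without PBS 11a and 4 without PBS 10a. Retsat, retinol saturase (ENSMUSG00000056666, GRCm38 chromosome 6, 72598475 to 72608425, plus strand), had 670.4, 653 and 1551 normalized counts in tumour mice, against 3539, 3962 and 4041 in PBS mice (limma log2 fold change -2.13 with SE 0.29, adjusted p = 0.00143), without overlap and with replicate 9a nearest to PBS. Dhrs3, which reduces retinal, and Aldh1a1, which oxidizes it to retinoic acid, fell by 0.93 (SE 0.15) and 1.08 (SE 0.22) (limma adjusted p = 0.00411 and 0.012). Amino acid catabolism had 10 of 58 lower and 1 higher (median -0.51, with 1 lower and 2 higher without replicate 7). Agxt, alanine-glyoxylate aminotransferase, had 2089, 3387 and 2925 normalized counts in tumour mice, against 4884, 7978 and 6470 in PBS mice (limma log2 fold change -1.20 with SE 0.22, adjusted p = 0.00751). Hibadh, of valine breakdown, and Qdpr, which regenerates the cofactor of phenylalanine hydroxylase, fell by 0.76 (SE 0.17) and 1.06 (SE 0.25) (limma adjusted p = 0.0168 and 0.0204). The gene that rose was Csad, of taurine synthesis, with 901, 1329 and 1233 normalized counts in tumour mice, against 602, 486 and 660.2 in PBS mice (limma log2 fold change 0.98 with SE 0.19, adjusted p = 0.00896). Neither Agxt nor Csad overlapped between the groups. Retsat, Dhrs3, Agxt and Csad passed in each of the 12 leave-outs of 1 library. The call was lost for Aldh1a1 without tumour 7 or PBS 12b (up to 0.0602) and Hibadh and Qdpr without tumour 7 or PBS 11a or 12b (up to 0.0798 and 0.104), with the largest limma adjusted p in brackets.

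Nuclear genes of mitochondrial lists mostly had small negative fold changes, and few were called. All 75 nuclear genes of oxidative phosphorylation had a negative log2 fold change, with a median of -0.37 and a range of -1.25 to -0.04, but only the testis-type subunit gene Cox6b2 was called (-1.25, limma adjusted p = 0.0107). Mitochondrial ribosomal proteins had 68 of 74 negative, a median of -0.21 and 2 called lower, Mrps35 and Mrpl1 (-0.53 and -0.43; limma adjusted p = 0.0117 and 0.0415). The TCA cycle list had 4 of 23 lower, 0 higher and a median of -0.37, with 0 lower without replicate 7, 1 without PBS 11a or 12b and 6 without 9a. Idh2, the mitochondrial NADP-dependent isocitrate dehydrogenase, had 1221, 1142 and 1672 normalized counts in tumour mice, against 2333, 2474 and 2145 in PBS mice (limma log2 fold change -0.80 with SE 0.16, adjusted p = 0.011), and the pyruvate dehydrogenase subunits Dlat and Pdhb fell by 0.84 (SE 0.18) and 0.61 (SE 0.14) (limma adjusted p = 0.013 and 0.0184). Each tumour library of Idh2 was below each PBS library. After rescaling the medians of these 3 lists were -0.32, -0.15 and -0.31, and without replicate 7 they were -0.27, -0.12 and -0.30. The 7 mitochondrially encoded genes had 3 positive and 4 negative log2 fold changes, with a median of -0.02 that was 0.04 after rescaling and -0.26 without replicate 7, and 0 were called by limma, edgeR or DESeq2 (0 at an unadjusted limma p under 0.05). The cytosolic ribosomal proteins had 0 of 80 called by limma, edgeR or DESeq2 (1 at an unadjusted limma p under 0.05) and a median of 0.07. Cox6b2 passed in all 12 leave-outs of 1 library. When 1 library was left out, the call was lost for Mrps35 without tumour 7 or PBS 12b (up to 0.0542), Mrpl1 in 9 of the 12 leave-outs, all but those of day 4 tumour 2 and day 4 PBS 4 and 5 (up to 0.193) and Idh2 without tumour 7 (up to 0.0547), with the largest limma adjusted p in brackets. So it was for Dlat and Pdhb without tumour 7 or PBS 11a or 12b (up to 0.0694 and 0.0876).

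Glucose and lipid synthesis genes changed in part. Of 34 genes of gluconeogenesis, glycolysis and glycogen 4 fell and 0 rose, with 2 lower without replicate 7, 8b or PBS 11a and 1 without PBS 12b. Ugp2, which makes UDP-glucose for glycogen, had 3297, 4159 and 3669 normalized counts in tumour mice, against 6971, 7935 and 7112 in PBS mice (limma log2 fold change -0.99 with SE 0.16, adjusted p = 0.00362). The 2 groups were separated, with little spread. Irs1, an insulin receptor substrate, Pklr, the liver pyruvate kinase, and Gckr, the glucokinase regulator, fell by 1.30 (SE 0.25), 0.85 (SE 0.22) and 0.77 (SE 0.21) (limma adjusted p = 0.0093, 0.0319 and 0.0428). G6pc, glucose-6-phosphatase, had 2437, 4761 and 5799 normalized counts in tumour mice, against 6806, 30429 and 13899 in PBS mice and just missed the threshold (limma log2 fold change -1.81 with SE 0.51, adjusted p = 0.0519). Lipogenesis had 3 of 23 lower, 0 higher. These were the carbohydrate-responsive factor gene Mlxipl (-1.07), the fatty acid elongase Elovl5 (-0.93) and malic enzyme, Me1 (-1.31; limma adjusted p = 0.0201, 0.0256 and 0.0364). Replicate 9a of Me1 lay within the PBS range. In sterol synthesis, Sqle, squalene epoxidase, was the 1 of 24 called higher (1.16, limma adjusted p = 0.0468). Ugp2 passed in all 12 leave-outs of 1 library. Leaving out 1 library ended the call for Irs1 without PBS 12b (up to 0.0524), Pklr without tumour 7 or 8b or PBS 10a, 11a or 12b (up to 0.156) and Gckr in 8 of the 12 leave-outs, all but those of tumour 9a, PBS 10a and day 4 PBS 4 and 5 (up to 0.199), with the largest limma adjusted p in brackets. It was also lost for Mlxipl without tumour 7 or PBS 11a or 12b (up to 0.102), Elovl5 without tumour 7 or 8b or PBS 11a or 12b (up to 0.106) and Me1 in 7 of the 12 leave-outs, all but those of tumour 9a, PBS 10a, day 4 tumour 2 and 3 and day 4 PBS 6 (up to 0.17). The same was true of Sqle in 9 of the 12 leave-outs, all but those of tumour 7 and day 4 tumour 1 and 2 (up to 0.152).

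Liver zonation genes were called mainly on the pericentral side. Of 25 pericentral genes 7 fell, namely Cyp2c50, Cyp2c37, Cyp2c29, Cyp1a2, Aldh1a1, Aldh3a2 and Gstm3, and Slc13a3 rose (median -0.66). Without replicate 7 or PBS 12b 4 were lower. Of 25 periportal genes 1 fell, Cyp2f2, with 1543, 3387 and 7014 normalized counts in tumour mice, against 10469, 12850 and 8531 in PBS mice (limma log2 fold change -1.66 with SE 0.43, adjusted p = 0.036) and no overlap. The periportal median was -0.24 and became 0.01 without replicate 7. The difference between the 2 lists was not tested. Uptake and export transporters had 2 of 32 lower, Slc22a30 (-1.08) and the organic anion transporter Slco1a4 (-1.05; limma adjusted p = 0.0104 and 0.0153), with 28 negative and a median of -0.47. Bile acid synthesis had 0 of 15 called by limma or edgeR and 3 called lower by DESeq2 (4 at an unadjusted limma p under 0.05), with 14 negative and a median of -0.47. The ATF4 and immediate-early lists held falls and no rises by limma. Their median log2 fold changes were -0.28 and -0.46 at day 21. At day 4, where no gene was called by limma, the medians were lower, -0.61 and -0.62. Of 10 genes of the ATF4 response 3 were called lower, among them the pseudokinase Trib3, with 30.7, 28.3 and 23.7 normalized counts in tumour mice, against 149.9, 142 and 129.9 in PBS mice (limma log2 fold change -2.32 with SE 0.31, adjusted p = 0.00122). Of 19 immediate-early genes, which respond within minutes to growth factors and stress, 4 were called lower and 0 higher, with 1 lower without replicate 7, 9a, PBS 11a or PBS 12b and 2 without 8b. The ERK phosphatase Dusp6 had 1458, 881 and 765 normalized counts in tumour mice, against 2297, 4059 and 2634 in PBS mice (limma log2 fold change -1.55 with SE 0.29, adjusted p = 0.00747), and the nuclear receptor Nr4a1 and transcription factor Atf3 fell by 3.17 (SE 0.83) and 2.34 (SE 0.60) (limma adjusted p = 0.0425 and 0.0387). None overlapped, and PBS replicate 11a was highest in each of the 3. Trib3 and Dusp6 passed in each of the 12 leave-outs of 1 library. Calls that did not hold were those for Cyp2f2 without tumour 7 or 8b, PBS 10a, 11a or 12b or day 4 tumour 1 (up to 0.125), Slc22a30 without PBS 12b (up to 0.0505) and Slco1a4 without tumour 7 or PBS 10a (up to 0.08), with the largest limma adjusted p in brackets. Likewise it was lost for Nr4a1 in 7 of the 12 leave-outs, all but those of PBS 10a, day 4 tumour 1 and 3 and day 4 PBS 4 and 6 (up to 0.144) and Atf3 in 7 of the 12 leave-outs, all but those of day 4 tumour 1 and 3 and day 4 PBS 4, 5 and 6 (up to 0.12).

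By limma, no gene was called among 26 hepatocyte transcription factors, 26 nuclear receptors and co-regulators, 17 clock genes, 11 urea cycle genes, 13 growth hormone and IGF axis genes and 31 mitochondrial solute carriers. Their medians were -0.21, -0.13, -0.07, -0.26, -0.26 and -0.25. By edgeR the counts were also 0 in each, and DESeq2 called 1 lower among the nuclear receptors, the urea cycle genes and the solute carriers each and 0 in the other lists. At an unadjusted limma p under 0.05 the counts were 4, 1, 1, 1, 1 and 6. Hnf4a, the nuclear receptor in the series' title, had 8304, 10971 and 11284 normalized counts in tumour mice, against 10208, 8752 and 10810 in PBS mice, and the groups overlapped (log2 fold change 0.03, 95% interval -0.35 to 0.41; limma adjusted p = 0.937). Its direction turned negative without tumour replicate 8b or 9a or PBS replicate 11a. A p that misses the threshold does not show that the groups are alike, and protein was not measured.

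Falling genes leaned most on replicate 7. It was the lowest tumour library for 185 of the 266 (69.5%), replicate 8b for 64 (24.1%) and replicate 9a for 17 (6.39%), against 47.9%, 24.0% and 28.1% over all 8441 genes. Replicate 9a was nearest to PBS for 190 of the 266 (71.4%). Without replicate 7, 87 genes were called higher and 58 lower, 84 and all 58 of them among the original calls, and all 169 and 266 kept their direction. Without replicate 8b, 143 were called higher and 160 lower, and without replicate 9a, 198 and 401. Leaving out a PBS library also cost calls, with 110 higher and 151 lower without 10a, 77 and 97 without 11a, and 70 and 60 without 12b. In all 12 leave-outs 58 genes were called higher and 46 lower each time. All 169 rising genes were also called by edgeR and by DESeq2 on recovered reads, and of the 266 falling genes 241 by edgeR and 264 by DESeq2. Over all tested genes edgeR called 7.02% higher and 2.26% lower, and DESeq2 9.46% and 4.62%. With genes chosen by the day 4 PBS mean, which does not enter the contrast, 173 of 8378 were called higher and 266 lower. The 2 choices share 8242 genes, and the calls come from the same fit. They include 163 of the 169 rising and 261 of the 266 falling genes, so the near-equal counts are not a separate test.

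The same genes were then read at day 4, in other mice. No gene in the rule was called there (limma; 608 of 8441 had an unadjusted p under 0.05, against 6.02% of all tested genes, and edgeR called 0 and DESeq2 3). Of the 169 rising genes 109 (64.5%) had a positive log2 fold change at day 4, against 45.5% of all 8441, with a median of 0.13. Of the 266 falling genes 194 (72.9%) were negative at day 4, against 54.5%, with a median of -0.13. The effects at the 2 days come from separate mice and separate controls, though 1 estimate of the spread. Lcn2 had a day 4 log2 fold change of 2.50, Saa2 of 2.01, Nnmt of 1.57, Krt23 of -1.82 and Acot1 of -1.93, each with limma adjusted p = 0.776 or above. A test of the difference between the 2 days called 21 of the 8441 genes, a smaller share than the 87 of all 12631 tested genes (0.689%). Of the 21, 16 were higher and 5 lower at day 21 than at day 4, and all 21 were also called at day 21. Mt2 differed by 4.21 and Slc13a3 by 2.95 (limma adjusted p = 0.0274 and 0.0456). Retsat differed by -2.12, Gstt3 by -2.11 and Lipc by -1.33 (limma adjusted p = 0.0456, 0.0456 and 0.0387). Srgap3, at -2.60 (limma adjusted p = 0.0274), passed the rule by its high PBS day 21 mean alone and is given as a value only. The same holds for the predicted gene Gm12494, at -1.48, with PBS means of 103 at day 21 and 74.9 at day 4. Both are in the counts of 21 and 5. Of the rest, chosen after their values were seen, Dnajc12, a co-chaperone, had 782, 1719 and 491 normalized counts in tumour mice, against 127, 174 and 154 in PBS mice at day 21 (limma log2 fold change 2.52 with SE 0.36, adjusted p = 0.00203) and -0.05 at day 4. Plxnb1, a semaphorin receptor, had 1.88 at day 21 and 0.07 at day 4. The count of 21 moved with single libraries. It was 0 without PBS replicate 10a, 11a or 12b, 0 without day 4 tumour replicate 3 or day 4 PBS replicate 5, 1 without day 4 tumour replicate 1 or day 4 PBS replicate 4, and 11 without day 4 PBS replicate 6. It was 7 without tumour replicate 7, 10 without 8b and 70 without 9a. With edgeR it was 0 and with DESeq2 145.

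**Figure D5:**
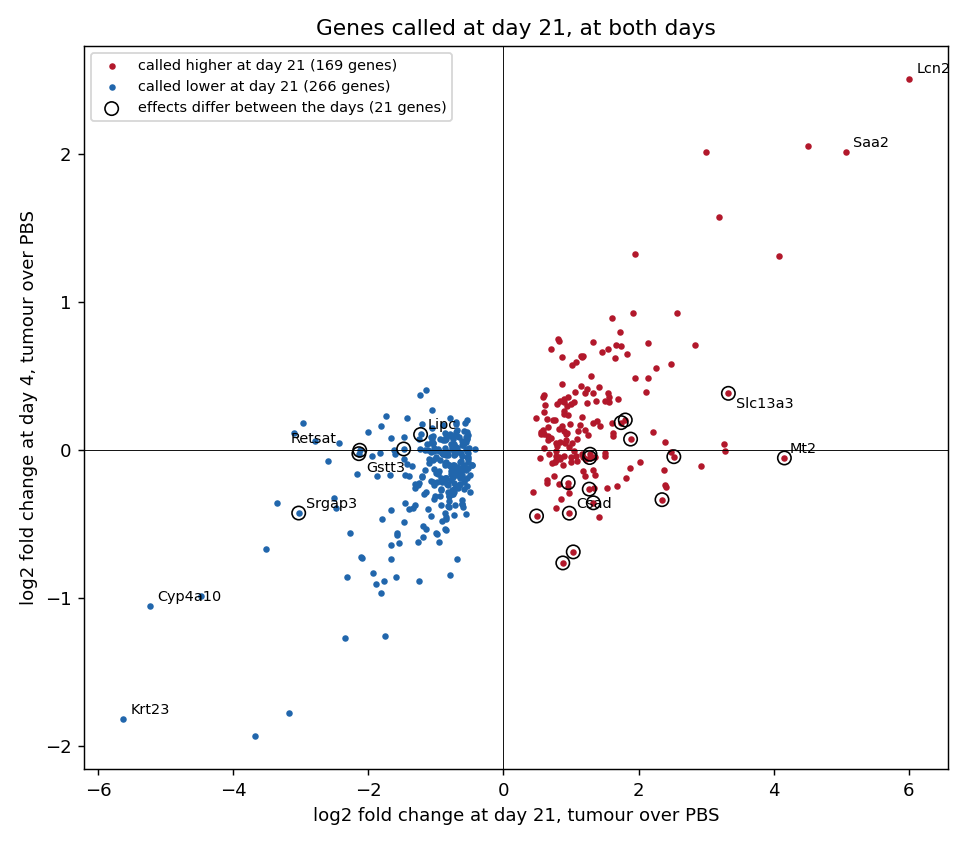
Log2 fold change, tumour over PBS, at day 21 (horizontal) and day 4 (vertical, on a narrower scale) for the 169 genes called higher (red) and the 266 called lower (blue) at day 21, with rings around the 21 genes whose effects differ between the days. Lcn2, Saa2, Cyp4a10 and Krt23 have the same sign on both days, and Mt2, Retsat and Gstt3 lie near 0 at day 4.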

How the data were processed

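Hepatocyte RNA of 12 mice was sequenced, 3 mice in each of 4 groups. Adapters were trimmed with cutadapt, reads aligned with STAR 2.4.2a to GRCm38, counted with HTSeq and normalized with DESeq2, per the submitters' processing notes. Which annotation was counted, and whether by strand, was not given in the sources used here. Deposited values (unit: signal) are counts divided by a size factor for each library, made by the authors. Dividing each library by the value of 1 read gave whole reads for 100% of values within 0.1, so the depth of each library is known.

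The 12631 genes whose mean reached 10 in the 12 libraries entered the test, on log2(value + 1) with limma 3.58.1 in R 4.3.3, with all 4 groups in 1 fit and Benjamini-Hochberg adjustment over all tested genes. A gene is called at an adjusted p under 0.05. Fold changes on this scale understate the change of low genes. Tumour was set against PBS at day 21 and at day 4, and the 2 effects against each other. On the recovered reads edgeR 4.0.16 (quasi-likelihood, TMM) called 203 of the 8441 genes higher and 250 lower, and DESeq2 1.42.0 called 325 and 516. The fits were tested on simulated counts, drawn with 1 setting of spread for all genes. Of 100 genes given a log2 change of 1 in either direction at day 21, limma and edgeR each recovered 50% and DESeq2 61%. Of 100 given a change of 2, each recovered 100%. A list without calls can therefore still hold changes of that smaller size. Tables were made with Python 3.11.15, numpy 2.4.6 and pandas 2.3.3.

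The members, lists, tests and alternatives were chosen with earlier results of these data known. Genes are named where they are Hnf4a, the 12 largest called rises and falls without overlap, the 8 with the highest PBS level among those called in each direction, the 4 with the smallest p in each list, or the 3 nearest to the limit on each side; names outside this rule were chosen after their values were seen. Apart from the lists, the rule passes over predicted genes and immune receptor segments. P-values rest on the spread between the 3 mice within each group, pooled over all 4 groups. The test at either day therefore also draws on the spread among mice of the other day. The labels do not give the cage, litter or extraction day of the mice. A few genes that the rule names are not reported here.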

Additional observations from a re-analysis of the deposited data

Results flagged for a closer look

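The effect of the tumour differed between day 21 and day 4, by a test of the difference itself (limma, Benjamini-Hochberg adjusted p under 0.05), for 21 of the 8441 genes in the rule. This is a smaller share than the 87 of all 12631 tested genes (0.689%). The count for genes in the rule was 0 with edgeR and in several leave-outs of 1 library. Differences are day 21 minus day 4 on the log2 scale. Among the genes described above it was 4.21 for Mt2, 2.95 for Slc13a3, 2.57 for Dnajc12, 1.81 for Plxnb1 and 1.40 for Csad. It was -2.12 for Retsat, -2.11 for Gstt3 and -1.33 for Lipc. It was -2.60 for Srgap3 and -1.48 for Gm12494, whose PBS means passed the limit of 100 at day 21 and not at day 4.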

How the results depend on the processing

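The 169 higher and 266 lower calls at day 21 came to 325 and 516 with DESeq2 on recovered reads, to 369 and 563 with library weights in limma, and to 101 and 105 at a log2 fold change of at least 1. With the 6 day 21 libraries alone 144 were lower, and with a minimum of 200 in PBS mice 111 were higher. The 21 genes whose effect differs between the days came to 0 with a mean of at least 50 over the libraries, 0 with edgeR, 145 with DESeq2 and 45 with library weights. At day 4 DESeq2 called 3 genes in place of 0. Leaving out 1 library at a time gave 70 to 198 higher, 58 to 401 lower, 0 to 70 for the difference and 0 to 2 at day 4, and the difference in the share of counts ran from -1.85 to -0.507 percentage points. The log2 fold change of Hnf4a ran from -0.058 (without PBS replicate 11a) to 0.17 (without tumour replicate 7), and was -0.030 without tumour replicate 8b and -0.050 without 9a. No paired analysis was possible because the groups share no replicate numbers.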
